A study of Mus musculus with 12 samples.

Results

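The comparison described here is that of resting B cells (RB cells) stimulated with anti-CD40 alone against unstimulated RB cells. Its members are the 4 arrays of a series of 12 whose labels name either anti-CD40 as the only treatment (2 arrays) or no treatment (2 arrays). RB cells were taken from spleens of BALB/c mice, given in the labels as female and 6 weeks old, by removing CD43+ cells, and were cultured for 4 h in RPMI medium with FCS. The other 8 arrays were from cells given anti-CD86, the TLR2 ligand Pam2CSK4, anti-CD86 with Pam2CSK4 or anti-CD40 with Pam2CSK4, with 2 arrays for each. The reagent list of the study names the anti-CD40 clone 3/23 and gives no dose for the array experiment. An isotype control antibody was not analysed here, so the effect of the anti-CD40 antibody cannot be told apart from that of adding an antibody. The direct comparison with anti-CD86 given further on does not separate them either, since anti-CD86 was itself used as a stimulus.

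CD40 is a receptor of the TNF receptor family on B cells, and its ligand is carried by activated helper T cells. It has no enzyme activity of its own and passes its signal through TRAF adaptors to the canonical and noncanonical NF-kB pathways and to MAP kinases. In B cells the signal is known for survival, for costimulatory molecules, for growth and for the germinal centre reaction. Here the antibody stood in for the T cell, with no antigen given.

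Each level is the log2 of the processed spot signal minus the 75th percentile of its array, so 0 marks that percentile and a difference of 1 is 2-fold within a gene. Levels of different genes are not compared, since each depends on its own probe. A gene is given by its brightest probe and is called at a Benjamini-Hochberg adjusted p under 0.05 in limma. Both unstimulated arrays and the first anti-CD40 array lay on slide 1 and the second anti-CD40 array lay on slide 2, and slide 2 also held the second arrays of 3 other conditions. The fit over all 12 arrays therefore carried the slide as a term, and a fold change given as ± is the fitted log2 value with its standard error. Between 46.6% and 60.6% of spots were well above background, with the highest share on the second anti-CD40 array, and 987 to 1206 spots per array were saturated. The first principal component (32.6% of the variance) separated the slides, and the second (24.2%) put the 4 arrays with anti-CD40 on the positive side and the other 8 on the negative side. The labels number both arrays of a group without saying which animals they came from, so the p-values measure only the spread between these samples.

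Of 15892 genes tested, 2229 were higher with anti-CD40 than in unstimulated cells (14.0%) and 5064 were lower (31.9%). The median gene stood at -0.11, and changes of at least 2-fold were fewer and mostly upward, with 361 genes higher and 181 lower. Of these 542, 490 were also called without the slide term. Without that term 845 genes were higher and 2747 lower. Among probes, 42.0% of the 12149 calls were higher in the main scaling and 17.4% of 6272 when each array was scaled on its median. That scaling moved the median gene from -0.11 to -0.41, so a small difference in this comparison can lose its call or its sign under it. In RNA from a whole culture, fewer cells of a type and less RNA per cell cannot be told apart.

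The 12 genes with the largest rise were chosen among genes well above background and unsaturated on all 4 arrays, whose groups did not overlap. They were led by Bcl2l1, Il2ra and Zbtb46. Absence of overlap was thus part of the choice of these genes and of the 12 with the largest fall, and is no finding about them. It is common with 2 arrays a group. Of 15892 genes tested, 6507 met the whole rule, which also asks for a call and for the same direction on slide 1. Where groups are said below not to overlap, this describes the values and adds no test. Bcl2l1, which encodes the anti-apoptotic protein Bcl-xL, read -0.35 and -0.48 in unstimulated cells and 3.53 and 3.34 with anti-CD40. The arrays of each group lay close together and far from the other group, and the fitted rise was 3.91 ± 0.10, or 15-fold (adjusted p = 1.78e-05, 2 arrays a group). Its 3 probes rose by between 2.66 and 3.92. Il2ra, the alpha chain of the IL-2 receptor (CD25), read -1.85 and -1.82 in unstimulated cells and 1.88 and 1.72 with anti-CD40, a rise of 3.61 ± 0.10 or 12.2-fold. Zbtb46, a zinc finger transcription factor best known from classical dendritic cells, went from -0.84 and -0.86 to 2.48 and 2.11, a rise of 3.23 ± 0.09 or 9.36-fold. Itgax, which encodes the dendritic cell integrin CD11c, did not rise with it and read 1.39 and 1.35 in unstimulated cells and 1.17 and 0.88 with anti-CD40. A part of dendritic cells in the rise of Zbtb46 was not tested.

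Esam, Icam1, Cdk5r1, Pim1 and Sema7a came next. Esam, an adhesion molecule of endothelial cells and platelets, read -2.73 and -3.02 in unstimulated cells and 0.06 and -0.46 with anti-CD40, a rise of 2.79 ± 0.19. The summed linear level of 4 measured platelet markers did not rise with it and was 4.37 and 4.67 in unstimulated cells against 2.56 and 2.36 with anti-CD40. Of 6 stromal and endothelial markers Col1a2 alone was measured, at a linear level of 0.114 and 0.155 in unstimulated cells and 0.172 and 0.240 with anti-CD40 (log2 difference 0.42, adjusted p = 0.226), and the endothelial genes Cdh5 and Kdr were not among the genes tested. A part of such cells in the rise of Esam was not tested. Icam1, the ligand of the integrin LFA-1 in contacts between B and T cells, went from 0.31 and 0.27 to 3.07 and 2.91, a 6.73-fold rise. Cdk5r1, the p35 activator of the kinase Cdk5, went from 3.92 and 3.99 to 6.64 and 6.32, a 6.14-fold rise. Pim1, a serine/threonine kinase that promotes survival and growth, went from 2.77 and 2.88 to 5.33 and 4.86, a 5.4-fold rise. Sema7a, a membrane semaphorin that binds integrins, went from 4.04 and 4.02 to 6.47 and 6.43, a 5.36-fold rise. The other genes of the 12 were Marcksl1 (2.21 ± 0.06), an actin-binding substrate of protein kinase C, the lipid transporter Mfsd2a (2.21 ± 0.08), AI848285 (2.30 ± 0.10) and the olfactory receptor gene Olfr1131 (2.19 ± 0.12). Olfr1131 was the least even of them, since its anti-CD40 arrays read 0.36 and 1.73, and its adjusted p was 0.0196 without the slide term.

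Chosen in the same way, the 12 genes with the largest fall changed by less than the leading genes that rose. Irs1, the adaptor of the insulin and IGF receptors, read 1.02 and 0.99 in unstimulated cells and -1.04 and -1.26 with anti-CD40, and fell by 2.06 ± 0.07 on the log2 scale, or 4.16-fold. Fcrla, an intracellular Fc receptor-like protein of B cells, went from 4.49 and 4.45 to 2.55 and 2.37, a 3.93-fold fall. S1pr1, the sphingosine 1-phosphate receptor by which lymphocytes leave lymphoid organs, went from 3.66 and 3.64 to 1.92 and 1.59, a 3.42-fold fall. In all 3 the unstimulated arrays agreed within 0.1. Hs3st1, a heparan sulfate sulfotransferase, went from 3.84 and 3.75 to 2.00 and 1.82. Mbd4, a DNA glycosylase that repairs mismatches at CpG sites, went from 0.78 and 0.68 to -0.89 and -0.95. Sgms1, which makes sphingomyelin, went from 5.58 and 5.57 to 4.07 and 3.65, and Tnfaip8l2 (TIPE2), a negative regulator of immune receptor signalling, from 2.66 and 2.68 to 1.14 and 0.95. Each of these 4 genes fell between 2.93-fold and 3.68-fold. The remaining genes were Xkrx, Gm7564, Fam222a, Rabgap1l and the interferon-inducible Ifi214, with falls of 1.68 to 1.74 on the log2 scale. The 4 probes of Rabgap1l did not agree in size and ranged from -1.68 to -0.02. Adjusted p-values of the 24 genes ran from 1.78e-05 to 2.31e-04, and all 24 were also called in the same direction without the slide term.

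**Figure D1:**
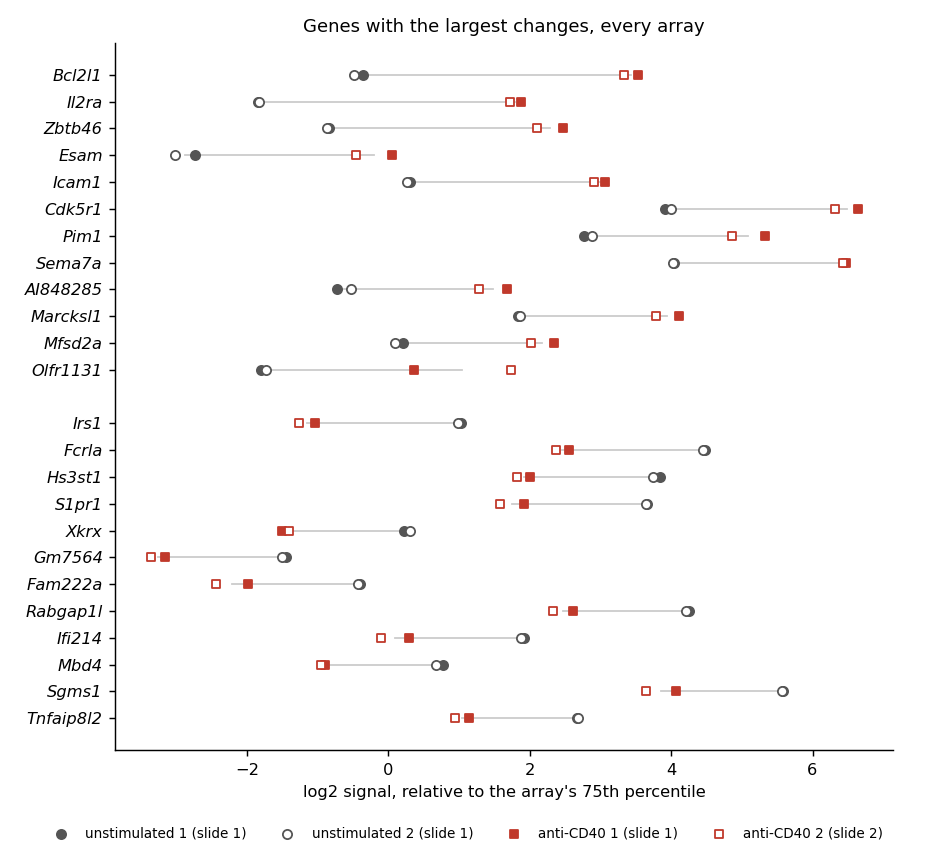
Log2 signal, in units of the 75th percentile of its array, of the 12 genes with the largest rise and the 12 with the largest fall with anti-CD40, 1 row per gene. Circles are the 2 unstimulated arrays, squares the 2 anti-CD40 arrays (filled, first array; open, second array), and the line joins the group means; genes whose groups overlap could not be chosen, and Olfr1131 has the widest spread between its anti-CD40 arrays.

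The CD40 pathway itself was read from a list of 17 genes of the receptor and its proximal signalling, of which 11 rose and 1 fell, against 14.0% and 31.9% of all genes. The list median was 0.35, against -0.11 for all genes. This list and those that follow were chosen with earlier results of these data known, so their counts and medians are a description. Cd40 read 2.71 and 2.72 in unstimulated cells and 4.01 and 3.52 with anti-CD40, a rise of 1.28 ± 0.07 or 2.43-fold. Traf1, an adaptor that NF-kB is known to induce, went from 3.09 and 3.11 to 4.28 and 4.04 (1.15 ± 0.06). The ubiquitin ligases Birc3 and Birc2, known as cIAP2 and cIAP1, rose by 1.02 and 0.94, the kinase Map3k8 by 0.88, the adaptor Traf6 by 0.78 and the TRAF-binding protein Tank by 0.63. The groups did not overlap in any of these 7 genes. Map3k14, the NIK kinase of the noncanonical pathway, and Traf3, which keeps NIK low, differed by 0.35 each with the slide term, and neither passed the test without it (adjusted p = 0.355 and 0.505). Traf2 gave -0.03 and was not called. Traf5, another adaptor of CD40, went the other way, from 5.23 and 5.30 to 4.10 and 3.83, and fell by 1.18 ± 0.09. If the slide term was left out, 7 of the 17 rose and 1 fell, and with median scaling 3 rose and 2 fell.

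The NF-kB subunits and their inhibitors, 15 genes, gave 11 that rose and none that fell, against 14.0% and 31.9% of all genes, with a median of 0.58. Among members unsaturated on all 4 arrays, Nfkbid and Nfkbie had the largest rises. Nfkbid, a nuclear IkB protein, went from 2.45 and 2.50 to 4.33 and 3.84 (1.83 ± 0.07), and Nfkbie, a cytoplasmic inhibitor, from 4.39 and 4.36 to 5.69 and 5.69 (1.31 ± 0.05). Nfkbib and the nuclear Nfkbiz rose by 1.06 each, and Tnfaip3 (A20), an enzyme that switches the pathway off, by 0.69. Of the subunits, Nfkb2, the precursor of p52, went from 4.49 and 4.44 to 5.51 and 5.04 (1.03 ± 0.05). Rel rose by 0.58, and a second probe of Rel gave 1.15. Nfkb1, the precursor of p50, was saturated on both anti-CD40 arrays and was at least 1.98-fold higher, since a saturated spot gives a lower bound. Rela (0.48), Relb (0.42) and Bcl3 (0.50) were called with the slide term and not without it, where the adjusted p ran from 0.252 to 0.367. A second probe of Rela gave 0.75. Tnip1 (0.12) and Cyld (-0.03) were not called. Nfkbia, the inhibitor IkB alpha, was saturated on all 4 arrays, so its change could not be read. Without the slide term 8 of the 15 rose, and with median scaling 6 rose, and none fell in either.

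The promoters of some of these genes are given as sequence because 11 of the 15 rose, or 8 and 6 under the alternatives just given. RefSeq windows of assembly GRCm38.p6, from 250 bases before to 50 after the start, were searched on both strands for the kB consensus motif, to which NF-kB dimers bind, and for the AP-1 motif TGANTCA, which reads the same on either strand apart from its middle base. The kB consensus was found in 9 of the 12 genes of the NF-kB list with a window (75%), and in 9.55% of all genes with a window and 12.1% of the tested genes with one. The 9 include Nfkbia, Tnip1 and Cyld, which were not called, while Tnip2, also not called, lacked the motif. Nfkbib and Rela, which rose, had a window without it. The motif thus did not separate the members of the list that rose from those not called. Among genes that rose by at least 2-fold it was in 40 of 242 (16.5%), and among those that fell by at least 2-fold in 13 of 123 (10.6%). Of the 12 genes with the largest rise, 9 had a window and 2 of these held the motif. AP-1 was found in 3 of the 12 genes of the NF-kB list (25%), in 8.97% of all genes with a window and in 6.37% of those tested. It was in 7.85% of the genes that rose by at least 2-fold and in 6.50% of those that fell by as much. A match is a run of letters and does not show that a factor binds there. The 6 windows below were chosen because they hold a kB motif, and belong to the genes with the largest rises among such genes in the leading 12 and in the lists. Each is written on the strand of its gene, 5′ to 3′, with the kB motif in capitals.
Bcl2l1: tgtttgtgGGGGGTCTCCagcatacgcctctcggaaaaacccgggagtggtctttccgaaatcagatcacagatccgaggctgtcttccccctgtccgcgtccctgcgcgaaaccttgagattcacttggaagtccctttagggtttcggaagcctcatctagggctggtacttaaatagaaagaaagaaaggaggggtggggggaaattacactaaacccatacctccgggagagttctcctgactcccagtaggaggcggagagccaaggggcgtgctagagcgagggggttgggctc
Il2ra: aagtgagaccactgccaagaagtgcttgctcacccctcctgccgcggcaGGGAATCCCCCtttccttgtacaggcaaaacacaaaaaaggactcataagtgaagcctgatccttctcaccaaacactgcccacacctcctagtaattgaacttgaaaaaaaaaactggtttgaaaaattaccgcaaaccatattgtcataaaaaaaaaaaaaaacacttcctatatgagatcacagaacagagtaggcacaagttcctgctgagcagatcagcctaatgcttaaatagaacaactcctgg
Nfkbid: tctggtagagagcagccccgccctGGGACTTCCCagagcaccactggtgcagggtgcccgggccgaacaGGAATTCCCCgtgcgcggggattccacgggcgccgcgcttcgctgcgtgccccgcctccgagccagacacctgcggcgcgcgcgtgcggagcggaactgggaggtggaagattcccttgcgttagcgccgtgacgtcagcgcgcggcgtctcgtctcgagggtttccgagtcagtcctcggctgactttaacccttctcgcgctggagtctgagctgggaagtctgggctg
Ebi3: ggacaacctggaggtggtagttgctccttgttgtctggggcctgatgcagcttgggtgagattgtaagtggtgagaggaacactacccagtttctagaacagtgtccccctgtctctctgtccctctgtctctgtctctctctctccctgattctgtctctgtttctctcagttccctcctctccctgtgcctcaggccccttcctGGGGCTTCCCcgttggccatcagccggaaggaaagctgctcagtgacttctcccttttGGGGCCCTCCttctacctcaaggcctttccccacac
Nfkbie: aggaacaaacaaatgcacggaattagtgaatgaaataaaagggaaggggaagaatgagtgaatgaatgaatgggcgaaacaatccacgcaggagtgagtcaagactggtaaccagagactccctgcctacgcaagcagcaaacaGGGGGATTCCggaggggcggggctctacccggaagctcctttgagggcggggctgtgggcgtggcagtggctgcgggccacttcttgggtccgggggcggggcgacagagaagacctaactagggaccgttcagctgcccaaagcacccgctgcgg
Pim3: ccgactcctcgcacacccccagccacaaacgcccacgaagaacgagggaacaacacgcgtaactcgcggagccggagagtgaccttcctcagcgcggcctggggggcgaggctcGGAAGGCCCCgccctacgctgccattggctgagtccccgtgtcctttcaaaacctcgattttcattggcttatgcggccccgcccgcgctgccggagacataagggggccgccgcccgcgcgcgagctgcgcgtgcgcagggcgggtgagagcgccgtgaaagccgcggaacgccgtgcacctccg

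The Bcl2l1 window lies at chr2:152830668-152830967 on the minus strand, and its motif ends 233 bases before the start. Bcl2l1 has 3 windows, and this is the only 1 with the motif. In Il2ra (chr2:11642542-11642841, plus strand) overlapping matches on both strands end 191 bases before the start. Nfkbid (chr7:30422156-30422455, plus strand) has a match 226 and another 181 bases before the start. Ebi3 (chr17:55952373-55952672, plus strand) has a match 44 bases before the start and another beginning at base 14 after it. Nfkbie (chr17:45555450-45555749, plus strand) has a match 106 bases before the start and 1 AP-1 motif, and Pim3 (chr15:88861944-88862243, plus strand) has a match 136 bases before it. The 6 genes rose by 3.91, 3.61, 1.83, 1.66, 1.31 and 1.18 on the log2 scale, in the order in which they are printed.

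Survival genes gave the list with the highest median, 1.34. Of 12 measured genes for anti-apoptotic proteins and PIM kinases, 9 rose and 1 fell, where 14.0% and 31.9% of all genes did. Bcl2l1 and Pim1 of this list were also among the 12 genes chosen above for their rise. Beside them, the A1 genes rose together. Bcl2a1b went from 5.55 and 5.59 to 7.48 and 7.10 (1.86 ± 0.07), and Bcl2a1c and Bcl2a1a rose by 1.79 and 1.63. These 3 are near-identical copies, so their signals may come from any of them. Bcl2a1a was saturated on 1 anti-CD40 array, so its 1.63 is not an exact rise. Pim2 went from 3.15 and 3.12 to 4.63 and 4.31 (1.5 ± 0.06) and Pim3 rose by 1.18 ± 0.09. The anti-apoptotic genes Mcl1 (-0.10) and Bcl2 (-0.12) were not called, so the rise covered Bcl-xL and A1 and was not seen in every branch of the family. Cflar (0.35), which encodes the caspase-8 inhibitor c-FLIP, and Xiap (0.47) were called with the slide term and not without it (adjusted p = 0.663 and 0.0733), and a second probe of Xiap gave -0.38. Without the slide term 7 of the 12 rose and none fell, and the same counts came with median scaling.

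Genes that promote cell death went both ways. Of 15 measured, 4 rose and 7 fell, with a median of -0.10 that lay close to that of all genes (-0.11), of which 14.0% rose and 31.9% fell. The death receptor gene Fas went from 1.75 and 1.76 to 3.11 and 2.66 (1.26 ± 0.08), and Bid, a BH3-only protein that links death receptors to mitochondria, rose by 0.99. Casp9, the initiator caspase of the mitochondrial pathway, went from 1.1 and 1.02 to -0.02 and -0.23, and fell by 1.18 ± 0.10. Its partner Apaf1 fell by 0.38, and the BH3-only genes Bmf and Pmaip1 by 0.82 and 0.57, although a second probe of Bmf gave 0.10. In these genes both anti-CD40 arrays lay on the same side of both unstimulated arrays. Bcl2l11 (Bim) gave 0.50 with the slide term and was not called without it (adjusted p = 0.198). Counts without the slide term were 2 and 5.

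Costimulation, adhesion and activation markers gave 12 genes that rose and 1 that fell of 18 measured, with a median of 0.52, against 14.0% and 31.9% of all genes and a median of -0.11. Il2ra and Icam1, which were among the genes chosen above for their rise, led. Il21r, a cytokine receptor of the germinal centre response, went from 0.96 and 1.00 to 2.88 and 2.48 (1.86 ± 0.06). Fcer2a, the low-affinity IgE receptor CD23, went from 2.28 and 2.26 to 3.62 and 3.33 (1.35 ± 0.06). Slamf1 rose by 0.86 and the adhesion receptor Cd44 by 0.52. The groups of these 4 genes did not overlap. Il4ra (0.80), the activation marker Cd69 (0.64) and Cd86 (0.54), a ligand of CD28 on T cells, were called with the slide term, while their adjusted p without it was 0.0707, 0.187 and 0.0689. Cd80, the other CD28 ligand, gave 0.51 with an adjusted p of 0.11 and was not called. Icosl, the ligand of ICOS on follicular helper T cells, was the gene that fell, from 3.78 and 3.86 to 3.27 and 2.94. Cd83 was saturated on all 4 arrays. Leaving out the slide term gave 6 that rose and 1 that fell, and with median scaling 4 rose and 1 fell.

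MHC class II genes showed no common direction. Of 13, 4 were higher and 3 lower, beside 14.0% and 31.9% of all genes, with a median of 0.11 that became -0.20 with median scaling, and without the slide term none was higher and 2 were lower. H2-Aa and H2-Ob, both chains of class II molecules, were higher by 0.25 and 0.16 with the slide term and at -0.025 and -0.10 without it. The 2 that fell in both fits were Ciita, the master regulator of these genes, at -0.42, and H2-DMb1, a chain of the peptide-loading molecule H2-M, at -0.51. Cd74 and H2-Ab1 were saturated on all 4 arrays.

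Cytokine genes went both ways. Of 19 measured, 5 rose and 6 fell, with a median of -0.21, against 14.0% and 31.9% of all genes. Ebi3, the shared subunit of IL-27 and IL-35, went from 2.89 and 2.92 to 4.61 and 4.26, a rise of 1.66 ± 0.06, and it alone of the list rose without the slide term. Il12b, the p40 subunit of IL-12 and IL-23, went from -0.03 on both arrays to -0.73 and -0.81, and fell by 0.66 ± 0.08. Ccl5 fell by 0.46. Il15 was at least 1.13-fold lower, being not well above background on either anti-CD40 array. It is counted among the 6 that fell but passed the filter only through the unstimulated arrays, so no p-value is given for it. Tnf, Il12a, Lta and the IL-6 family member Clcf1 gave 0.34 to 0.54 with the slide term, and their adjusted p without it ran from 0.126 to 0.337. Il6 (-0.34, adjusted p = 0.07) and Il10 (-0.03) were not called. Ltb was saturated on all 4 arrays.

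Homing receptors went both ways. Cxcr5, which guides B cells into follicles, went from 6.37 and 6.28 to 7.56 and 7.25 (1.21 ± 0.06). Ccr7, which draws B cells to the T cell zone, was saturated on both anti-CD40 arrays and at least 1.71-fold higher. S1pr1, given above, fell 3.42-fold, and S1pr4 went from 0.26 and 0.18 to -0.73 and -0.88 (-0.91 ± 0.10). Ccr6 went from 4.04 and 4.02 to 3.36 and 2.91 (-0.74 ± 0.08). Groups did not overlap in these genes, and those 5 were also called without the slide term. Cxcr4 (-0.35) and Itgb7 (-0.42) were called only with it. Of 13 measured, 3 rose and 8 fell, with a median of -0.30, against 14.0% and 31.9% of all genes and a median of -0.11, and 2 rose and 3 fell without the slide term.

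Among regulators of B cell fate, 5 of 23 rose and 11 fell, with a median of -0.22, against 14.0% and 31.9% of all genes and a median of -0.11, and 2 rose and 7 fell without the slide term. Irf4, a factor needed in graded amounts for the germinal centre and for plasma cells, went from 2.90 and 2.89 to 4.84 and 4.91 (1.93 ± 0.05). Its partner Batf, needed for class switching, went from 2.84 and 2.85 to 4.43 and 4.16 (1.53 ± 0.09). These were the 2 that rose without the slide term. Spib (0.82) and Irf8 (0.56) were called with it only. Ets1, which restrains plasma cell differentiation, went from 7.12 and 7.31 to 6.33 and 6.04 (-0.93 ± 0.09), and Id3, an inhibitor of E proteins, from 1.51 and 1.57 to 0.76 and 0.37 (-0.80 ± 0.06). The coactivator Pou2af1, the E protein gene Tcf4 and the repressor gene Bach2 fell by 0.60, 0.58 and 0.56, although a second probe of Tcf4 gave 0.17. The 5 genes that fell had no overlap between groups and were called without the slide term.

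Growth genes rose while genes of quiescence fell. Of 27 genes for ribosome biogenesis and for nucleotide and polyamine synthesis, many of them known targets of Myc, 21 rose and 1 fell, with a median of 0.82, against 14.0% and 31.9% of all genes and a median of -0.11. Myc itself went from 4.95 and 5.02 to 6.77 and 6.39 (1.75 ± 0.07). Nolc1, a nucleolar phosphoprotein, went from 3.44 and 3.46 to 5.15 and 4.77 (1.69 ± 0.06). Polr1b, a subunit of RNA polymerase I, went from -0.02 and 0.02 to 1.45 and 1.03 (1.42 ± 0.07). The nucleotide synthesis enzymes Ppat and Ctps rose by 1.27 and 1.24, the rRNA processing genes Mybbp1a, Nop2 and Gnl3 by 1.1, 1.07 and 1.00, and the polyamine enzyme Srm by 0.86. The gene that fell was Cad (-0.25), a pyrimidine synthesis enzyme, which was not called without the slide term (adjusted p = 0.15). Without that term 17 of the 27 rose, and with median scaling 7 rose, and none fell in either. In the same arrays the quiescence list, factors that hold lymphocytes at rest, gave 13 that fell and 2 that rose of 20 measured, with a median of -0.51, again beside 31.9% of all genes that fell. Btg2, an antiproliferative gene, fell by 0.95 ± 0.07, Sesn1, an inhibitor of mTORC1, by 0.89, Klf13 by 0.82, Cdkn2d, an inhibitor of Cdk4 and Cdk6, by 0.82 and Cdkn1b by 0.47. Foxo1, a factor that PI3K signalling inactivates, went from 5.52 and 5.50 to 4.76 and 4.42 (-0.77 ± 0.05), and Klf4 and Txnip fell by 0.76 and 0.67. Klf3 rose by 0.82. Klf2 and Btg1 were saturated on all 4 arrays. A fit with no slide term gave 12 that fell and 1 that rose, and with median scaling 13 fell and none rose.

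Of 25 cell cycle genes, Ccnd2 and Mcm3 rose and 10 fell, with a median of -0.18, against 14.0% and 31.9% of all genes and a median of -0.11. Ccnd2, the D-type cyclin that B cells use to leave G0, went from 2.83 and 2.84 to 5.03 and 4.51 (2.15 ± 0.07, 4.45-fold), and its 3 probes rose by 2.10 to 2.18. Ccnd3, another D-type cyclin, went the other way, from 3.44 and 3.47 to 2.62 and 2.24 (-0.89 ± 0.07). The thymidylate synthase gene Tyms and the cyclin gene Ccne1 fell by 0.67 and 0.64. Mcm3 gave 0.82 with the slide term and an adjusted p of 0.0961 without it. For the list, 1 rose and 6 fell without the slide term, and 1 rose and 7 fell with median scaling.

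The immediate early genes and dual-specificity phosphatases gave 6 that rose and 9 that fell of 25, beside 14.0% and 31.9% of all genes, with a median of 0.06 that became -0.24 with median scaling. Without the slide term 3 rose and 6 fell. Beside Myc, Zfp36l1, which degrades AU-rich mRNA, rose by 0.66, Ier5 and Dusp4 by 0.62 each, Dusp2 by 0.57 and Dusp1 by 0.55, of which the 3 phosphatase genes were not called without that term (adjusted p = 0.0573 to 0.23). Nr4a2, Egr1, Egr2 and Fos, which B cell receptor signals are known to induce within the first hour, fell by 0.84, 0.64, 0.62 and 0.41. Junb, Jund and Nr4a1 were saturated on all 4 arrays. Glycolysis and nutrient transporters gave 4 that rose and 6 that fell of 19, near the same shares of all genes, and 2 and 3 without the slide term. Among its members the hexokinase gene Hk2 and the amino acid transporter gene Slc7a5 rose by 0.87 and 0.55, while the arginine transporter gene Slc7a1 fell by 0.73 ± 0.18.

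B cell receptor signalling and coreceptors gave 2 that rose and 10 that fell of 23, with a median of -0.17, against 31.9% of all genes that fell. In the fit without the slide 1 rose and 5 fell, and with median scaling none rose and 5 fell. Fcgr2b, the inhibitory Fc receptor of B cells, went from 3.35 and 3.42 to 2.23 and 1.70 (-1.24 ± 0.08). Btk, the kinase that links the receptor to phospholipase C gamma, went from 4.60 and 4.66 to 3.44 and 3.07 (-1.22 ± 0.06). The kinase gene Lyn fell by 0.73, the lipid phosphatase gene Inpp5d (SHIP1) by 0.49 and the complement receptor gene Cr2 (CD21) by 0.42, although a second probe of Cr2 gave 0.52. The tetraspanin gene Cd81 rose by 0.75. Groups did not overlap in these 6 genes. Syk (0.53) was called with the slide term only (adjusted p = 0.156 without it). Cd79b and Blnk were saturated on all 4 arrays.

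Of 12 genes of the Notch2 pathway and the marginal zone B cell, 9 fell and none rose, with a median of -0.43, against 31.9% of all genes that fell and a median of -0.11. Hes5, a target of Notch, went from 2.34 and 2.37 to 0.93 and 0.64, and fell by 1.44 ± 0.06. Notch2, the receptor that directs marginal zone fate, fell by 0.65, and the marginal zone surface genes Cd1d1 and Cd9 by 0.64 and 0.53. Dtx1 (-0.43), another Notch target, was called with the slide term only (adjusted p = 0.0729 without it). S1pr1 and Cr2 stand in this list as well. When the slide term was left out 6 of the 12 fell, and with median scaling 8 fell, and none rose in either.

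The lists of stress and interferon responses stand beside 14.0% of all genes that rose and 31.9% that fell. The interferon-induced genes gave 3 that rose and 9 that fell of 26, close to those shares, among them Stat2 and Ddx58 (RIG-I), which fell by 0.55 each, although the 3 probes of Ddx58 ranged from -0.71 to -0.01. Irf1, at 0.57, was called with the slide term only. Without the slide term none of the interferon-induced genes rose and 5 fell, and with median scaling none rose and 6 fell. Heat shock genes gave 2 and 4 of 11. None of them rose and 2 fell without the slide term, and none rose and 1 fell with median scaling. The unfolded protein and integrated stress response gave 1 and 7 of 13, with a median of -0.32, and 1 and 3 without the slide term.

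**Figure D2:**
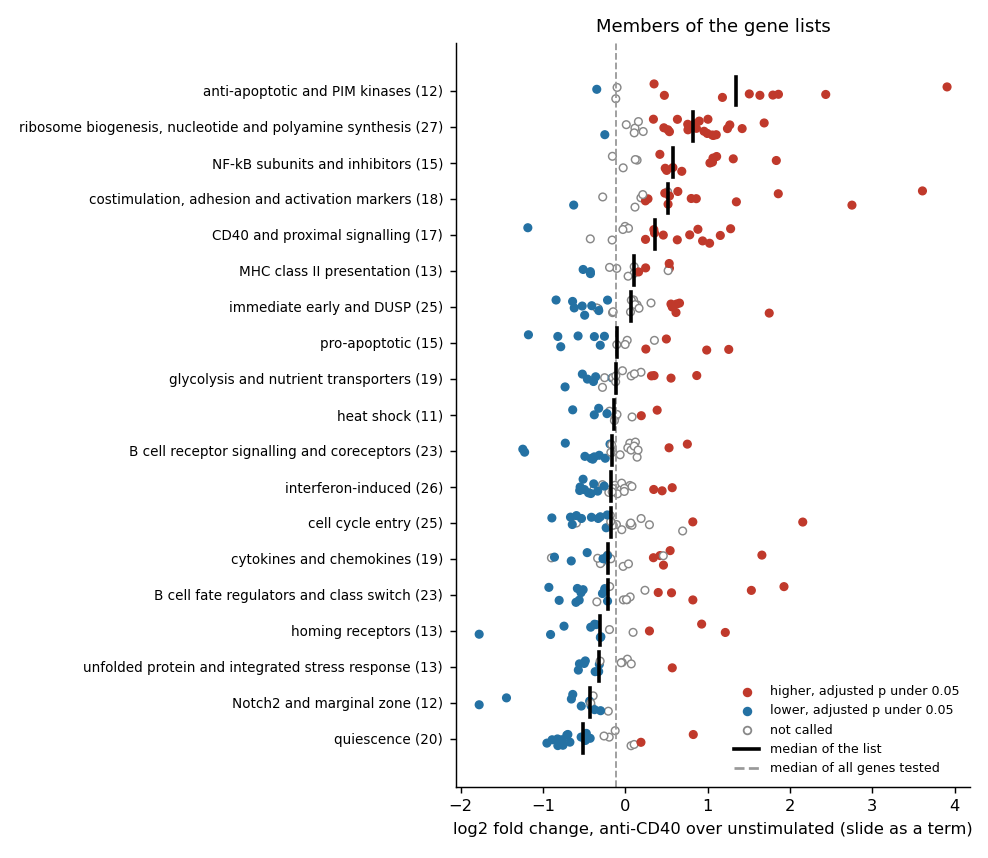
Fitted log2 fold change, anti-CD40 over unstimulated, of each measured member of the 19 gene lists, with the number measured in brackets. Red points are members called higher, blue points members called lower and open points members not called; the black bar is the list median and the dashed line the median of all genes tested (-0.11). The survival and ribosome biogenesis lists have the highest medians (1.34 and 0.82) and the quiescence list the lowest (-0.51).

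The cells carried B cell transcripts on every array. The gene for CD20, Ms4a1, read 6.68 and 6.69 in unstimulated cells and 7.17 and 6.92 with anti-CD40, and all 12 measured B cell markers were well above background in both groups. Of the 12, 2 rose (Ms4a1 and Fcer2a), 6 fell, Fcrla by the most (1.98), and 2 (Cd79b and Blnk) were saturated on all 4 arrays, with a median of -0.11. Their summed linear level, in units of the 75th percentile, was 522 and 581 in unstimulated cells and 608 and 530 with anti-CD40. Markers of other blood cells were also detected, and 31.9% of all genes fell. Of 14 measured myeloid markers 9 fell and none rose (5 fell without the slide term, and 5 with median scaling), and their sum was 723 and 779 in unstimulated cells and 659 and 556 with anti-CD40. Of 8 NK cell markers 4 fell, as in both of those alternatives, with sums of 22.8 and 22.5 against 16.7 and 13.9. Of 14 T cell markers 2 fell and 1 rose, with sums of 49.1 and 50 against 46.1 and 36, and none was called without the slide term. Of 4 red cell markers 1 fell, with sums of 29.9 and 29.4 against 30.2 and 22.5. Of 4 platelet markers 1, Pf4, fell by 0.94. Lyz2 and S100a9 were saturated, so the myeloid sum understates their level. Spn, which encodes the CD43 used to deplete cells, fell by 0.40. Myeloid and NK sums were also lower than in unstimulated cells with anti-CD86 (623 and 559 for myeloid cells, 17.3 and 15.3 for NK cells). With Pam2CSK4 they were lower as well (696 and 599 for myeloid cells, 19.5 and 17.4 for NK cells). The sums carry no slide term, and the second arrays of anti-CD40, anti-CD86 and Pam2CSK4 lay on slide 2. The part of these other blood cells in the falls reported above was not tested.

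Some genes were measured in only 1 of the groups. There were 165 genes not well above background on either unstimulated array, which gave only a bound on their rise and could not be among the 12 genes above. The highest bounds, on genes chosen after their values were seen, were 8.21-fold for Lce3c, 7.27-fold for Pax2 and 6.02-fold for Ntng1. Each was taken from the mean of 2 anti-CD40 arrays that lay far apart. They read 1.14 and -2.64 for Lce3c, 0.80 and -2.66 for Pax2 and 0.44 and -2.83 for Ntng1. The second array alone would give a smaller bound for each. There were also 122 genes not well above background on either anti-CD40 array. Il15, a cytokine of NK and memory T cells, was among the latter and at least 1.13-fold lower. The array also carried probes for noncoding RNA, and of 7356 tested 1781 were higher (24.2%) and 562 lower (7.64%) with anti-CD40, against 5102 higher (17.4%) and 7047 lower among all 29361 probes tested. A probe for Bic, the host transcript of the microRNA miR-155, which was chosen after its values were seen, read -3.35 and -2.88 in unstimulated cells and -2.42 and -1.88 with anti-CD40. The groups did not overlap, and the difference was 1.04 ± 0.28 (adjusted p = 0.0239, and 0.0373 without the slide term). On both anti-CD86 arrays the probe was not well above background.

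The direct comparison with anti-CD86 asked where the response to anti-CD40 differed from that to another antibody against a B cell surface protein. Its differences are between anti-CD40 and anti-CD86 arrays, while the unstimulated arrays entered the filter and the estimates of spread and slide. The genes tested were those detected in unstimulated or anti-CD40 cells, so a gene seen only with anti-CD86 or Pam2CSK4 is not among them. Relative to anti-CD86, 2633 genes were higher with anti-CD40 (16.6%) and 3602 lower (22.7%), and 386 and 213 of them by at least 2-fold. Among probes 5283 were higher and 6119 lower, which became 1041 and 8042 with median scaling. It shares both anti-CD40 arrays with the comparison that chose the 24 genes above, so their values here are a description. The 12 that rose stood 1.64 to 3.71 above anti-CD86 on the log2 scale, and the 12 that fell 1.21 to 2.28 below it. By the rule for this contrast the highest were Il2ra (3.71), Bcl2l1 (3.68), Zbtb46 (3.10), Esam (2.84) and Cdk5r1 (2.74). Bcl2l1 read -0.28 and -0.22 with anti-CD86, close to its unstimulated level, and Il2ra was low in the same way. The lowest were Irs1 (-2.28), Fcrla (-1.97), Mbd4 (-1.95), Ripor1 (-1.86) and Carns1 (-1.86). Of the lists, ribosome biogenesis gave 20 of 27 higher than with anti-CD86 and none lower, NF-kB 11 of 15 higher and 1 lower, costimulation 14 of 18 higher and 1 lower, and marginal zone genes 8 of 12 lower and none higher. Clcf1 went against these, with -0.75 and -1.01 under anti-CD40 and 0.07 and -0.11 under anti-CD86, a difference of -0.86.

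Against Pam2CSK4, a lipopeptide that acts through TLR2 and MyD88, 2211 genes were higher with anti-CD40 (13.9%) and 3367 lower (21.2%), and 240 and 103 of them by at least 2-fold. Among probes 4496 were higher and 4760 lower, which became 710 and 4677 with median scaling and 1064 and 552 without the slide term, so the balance of directions depended on both choices. The anti-CD40 arrays are again those that chose the 24 genes, and as a description the 12 that rose stood 0.91 to 2.80 above Pam2CSK4 and the 12 that fell 1.14 to 1.74 below it. The highest were Esam (2.80), the matrix protein gene Matn4 (2.51), Zbtb46 (2.05), Il2ra (1.86) and the Src family kinase gene Yes1 (1.80). The clearest difference in the other direction was in Il12b, which read -0.73 and -0.81 with anti-CD40 and 1.82 and 1.68 with Pam2CSK4, a difference of -2.52 ± 0.07. Other inflammatory genes were also lower than with Pam2CSK4. Tnf read 1.21 and 0.80 with anti-CD40 against 2.09 and 1.80 (-0.94), Il6 -0.27 and -0.69 against 0.83 and 0.56 (-1.18), the chemokine gene Cxcl10 -0.17 and -0.50 against 1.04 and 0.89 (-1.30), and Ccl3 differed by -0.77. Nfkbiz, which TLR signals are known to induce, was raised by anti-CD40 over unstimulated cells and still lower than with Pam2CSK4 (4.19 and 3.90 against 4.99 and 4.80, -0.85). The groups did not overlap in these 6 genes. Il10 was lower by 0.70 with the slide term and not called without it (adjusted p = 0.08). Of the 19 cytokine genes 4 were higher and 10 lower than with Pam2CSK4. Fcrla (-1.74) and Irs1 (-1.72) were among the 5 lowest, as were Dmbx1 (-2.29) and Tm4sf4 (-1.86), which were not called without the slide term.

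**Figure D3:**
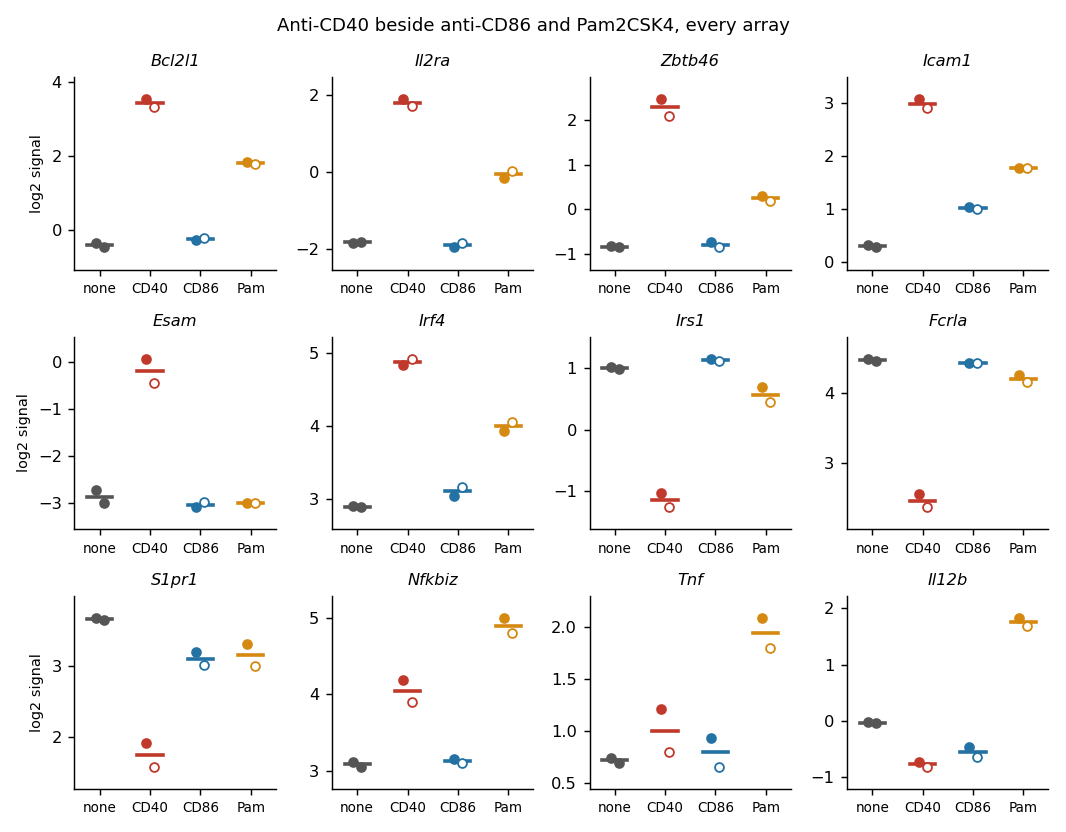
Log2 signal, in units of the 75th percentile of its array, of 12 genes on each array of unstimulated cells (none), anti-CD40 (CD40), anti-CD86 (CD86) and Pam2CSK4 (Pam). Filled points are arrays of slide 1, open points arrays of slide 2, and bars are means of 2 arrays; each panel has its own scale. Bcl2l1, Il2ra, Zbtb46, Icam1, Esam and Irf4 are highest and Irs1, Fcrla and S1pr1 lowest with anti-CD40, while Nfkbiz, Tnf and Il12b are highest with Pam2CSK4.

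Whether anti-CD40 moved the same genes on other arrays was read from cells given anti-CD40 with Pam2CSK4 against cells given Pam2CSK4, a comparison added after the data were seen. Its differences rest on other arrays than that of anti-CD40 alone against unstimulated cells, although the fit took spread and slide from all 12. In it 2839 genes were higher (17.9%) and 3189 lower (20.1%), and 280 and 256 of them by at least 2-fold. All 24 genes were called in their first direction, by 0.66 to 2.48 for those that rose and 0.94 to 2.53 for those that fell, and 22 of the 24 were also called without the slide term. Bcl2l1 read 1.82 and 1.77 with Pam2CSK4 and 4.39 and 4.22 with both, a rise of 2.46 ± 0.10. Il2ra rose by 2.48 ± 0.10, while Irs1 fell by 2.53 ± 0.07. Esam, -3.01 and -3.0 with Pam2CSK4, read -2.28 and -2.19 with both and had an adjusted p of 0.0355, and of 0.0515 without the slide term. The other gene not called without it was Olfr1131 (adjusted p = 0.401). Of the lists, ribosome biogenesis gave 22 of 27 higher and 1 lower, NF-kB 11 of 15 higher and 1 lower, quiescence 14 of 20 lower and 3 higher, and marginal zone genes 8 of 12 lower and none higher.

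**Figure D4:**
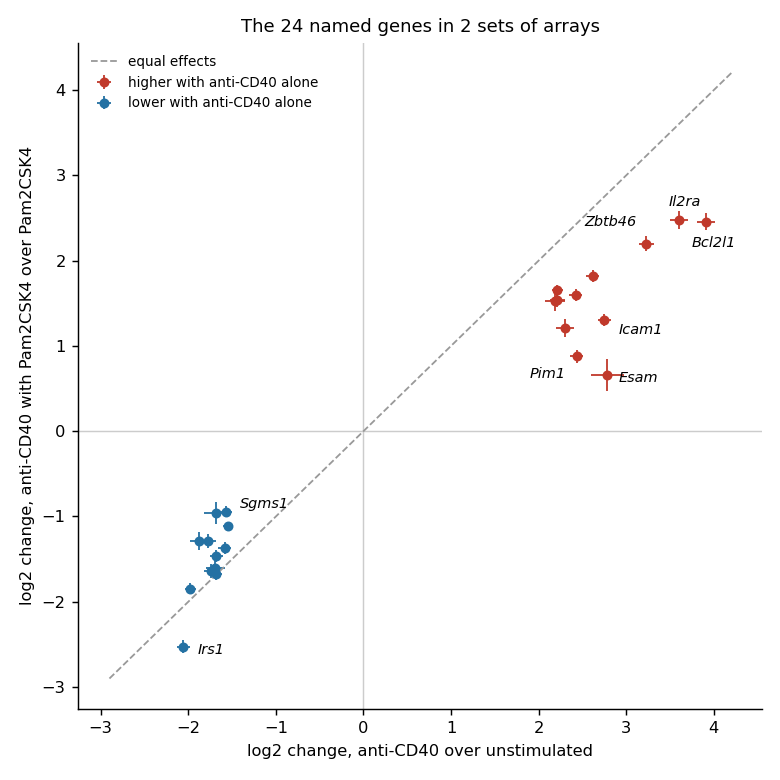
Fitted log2 change of the 24 named genes with anti-CD40 over unstimulated cells (horizontal) and with anti-CD40 and Pam2CSK4 over Pam2CSK4 (vertical); points are estimates, bars standard errors, and the dashed line marks equal effects. All 24 genes keep their direction, and the 12 that rose lie below the line, with Esam (2.79 against 0.66) furthest from it.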

How the data were processed

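The authors hybridised Cy3-labelled RNA to a custom mouse array and read the scans with Agilent Feature Extraction. The processed intensity of each spot, which that program had corrected for background, was taken from the scanner output they deposited. The authors also deposited a log2 table of the same arrays, which equalled the log2 intensity minus a constant per array within 0.001 for at least 99.98% of probes and was used as an alternative. The methods name GeneSpring without giving the normalization. The labels describe female mice, the methods male or female.

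Here the 75th percentile of each array was subtracted from its log2 intensity, without control and outlier spots, and spots of a probe were averaged. Both arrays of either group were well above background for 29427 of 61307 probes, and 66 of these lacked a value, which left 29361. limma 3.58.1 in R 4.3.3 fitted 6 conditions and the slide over 12 arrays (5 residual degrees of freedom), with Benjamini-Hochberg adjustment over these probes and a threshold of 0.05. The fit was tested on simulated data. An exact permutation test of 2 against 2 arrays cannot go below 0.333. Precision is limited by the number of arrays. The named genes are the 12 highest and 12 lowest log2 fold changes among genes with a symbol called, measured and unsaturated on all 4 arrays, without overlap and with the same direction on slide 1, plus genes of the lists, and the 5 highest and 5 lowest of each direct comparison. Members and lists were chosen with earlier results of these data known. Names came from the files and a RefSeq table of GRCm38.p6, and 34524 of 40628 probes not for noncoding RNA matched it. The array was annotated to mm9, and no probe coordinates are given. Alternatives were the slide term, scaling, background correction, filters and leaving out arrays.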

Additional observations from a re-analysis of the deposited data

Results flagged for a closer look

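For 14 of the 24 named genes the effect of anti-CD40 differed between cells without and with Pam2CSK4, by a test of the difference itself in the limma fit with the slide term (adjusted p under 0.05), against 1586 of all genes (9.98%). The genes were chosen for their size in the first of the effects, and the effect with Pam2CSK4 was closer to zero in 13 of the 14. As the effect without minus the effect with Pam2CSK4, on the log2 scale, the difference was largest in Esam (2.13) and Pim1 (1.55). It was 1.45 in Bcl2l1, 1.44 in Icam1, 1.13 in Il2ra, 1.09 in AI848285 and 1.03 in Zbtb46. Sema7a (0.83), Cdk5r1 (0.80), Mfsd2a (0.68) and Marcksl1 (0.56) followed. Among the genes that fell it was -0.63 in Sgms1 and -0.44 in Tnfaip8l2. Irs1 (0.47) went the other way and fell further with Pam2CSK4 present. Without the slide term 5 of the 14 differences were called. What sets these differences was not tested.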

How the results depend on the processing

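The count of probes called depended on the slide term, the scaling and the filter. For anti-CD40 against unstimulated cells it was 12149 with the slide as a term, 5891 without it, 5205 with an ordinary variance and no slide term, and 500 from the 4 arrays of both groups alone without it. It was 6272 with median scaling and 6494 with no filter on dim probes. An alternative chosen after the data were seen, no slide term without anti-CD40 replicate 2, gave 2288. Leaving out 1 array at a time in the fit with the slide gave 8491 to 10587. Against anti-CD86 the main count of 11402 became 3466 without the slide term and 3260 with an ordinary variance and no slide term. It became 2116 without the slide term and anti-CD40 replicate 2, and 6283 with no filter. Against Pam2CSK4 the main count of 9256 became 1616, 1609, 1026 and 3435 in the same order, and 5387 with median scaling. There, leaving out 1 array at a time gave 4359 to 7610, with 4359 without Pam2CSK4 replicate 2, 5131 without Pam2CSK4 replicate 1 and 5974 without anti-CD40 replicate 2. The samples share a replicate number that the labels do not tie to an animal or day. Deviations of same-numbered arrays correlated at -0.05 between anti-CD40 and unstimulated cells and at 0.14 between unstimulated cells and anti-CD40 with Pam2CSK4, the pair of conditions wholly on slide 1, while in the other conditions the number and the slide coincide. A replicate block in place of the slide gave 9965 probes against unstimulated cells, 5825 against anti-CD86 and 3443 against Pam2CSK4. The causes were not tested. Of 7570 values of 382 followed genes under the alternatives, 6549 kept direction and side of the threshold, 942 lost the call, 62 gained it and 17 reversed. With median scaling Tob2 became -0.11, Hspd1 -0.11, Pdcd1lg2 -0.059, Ikbkb -0.058, Ddit4 -0.054, Cd48 -0.028 and Gpr183 -0.010, and H2-Aa and H2-Ob became -0.056 and -0.14. H2-Aa and H2-Ob were also -0.025 and -0.10 in the fits without the slide term. These were the fit of all arrays, that with an ordinary variance, that with the replicate block in its place and that of the 4 arrays alone. For the 24 named genes, 478 of 480 values under the alternatives kept direction and call, 2 lost the call and none reversed. Saturation limits what can be read of 721 genes that were saturated on all 4 arrays.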
